A study of Mus musculus with 7 samples.

Results

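Keratins Krt4, Krt5, Krt13, Krt14, Krt15 and Krt6a and the keratinocyte gene Krtdap, which mark the squamous epithelium of the forestomach, were followed across 7 arrays of mouse gastric corpus. The members were taken by gene symbol, through probe sets annotated to 1 gene only and, where a gene had more than 1, through the probe set with the highest mean over all arrays. The probe sets were thus chosen by their mean log2 signal, and the genes were named with earlier per-array results of these data in view, so their levels are given as a description. Of the 7 genes, 6 had such a probe set, 1 each, out of 22180 genes measured this way. Krt5 had none: its single probe set on the array is annotated to Krt6a as well and was not used.

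All mice carried Atp4b-DTR, a transgene that puts a diphtheria toxin receptor under the control of the proton pump gene Atp4b, so that diphtheria toxin removes parietal cells, and were adults of 8 to 12 weeks. The uninjured control received saline on 3 days (1 array). In the other groups, each mouse was given 225 ng of toxin on each of 3 days, and corpus was taken 24 h (1 array), 36 h (1 array), 48 h (2 arrays) or 72 h (2 arrays) after the last dose. The labels describe the 48 h and 72 h samples as independent, and the titles at 72 h add the letters A (replicate 1) and B (replicate 2). They give nothing more on which animals these samples came from, so the spread within these pairs may be technical in part. Precision is limited by how few arrays there are. One array, 48 h replicate 2, stood apart in genes of the liver: Alb, the serum albumin gene, had a log2 signal of 9.60 there, against 4.70 to 5.49 on the other 5 toxin arrays and 4.49 on the control.

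In the mouse, the upper part of the stomach, the forestomach, is lined by a keratinised stratified squamous epithelium that meets the glandular corpus at a sharp border. Keratins form filaments as pairs of an acidic type I and a basic type II chain. Cells of the basal layer use Krt5 with Krt14, and Krt15 is another basal keratin. Cells that leave the basal layer switch to other pairs, Krt4 with Krt13 in the lining of the mouth and oesophagus, and Krt1 with Krt10 in keratinised epithelia such as the skin. The uppermost cells build a cornified envelope of cross-linked proteins. The gland cells of the corpus use the simple epithelial keratins Krt8, Krt18 and Krt19. In bulk tissue, fewer cells of a type and less RNA per cell cannot be told apart.

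The 3 markers of the upper squamous layers, Krt4, Krt13 and Krtdap, were high on 5 arrays and low on the other 2, and the low arrays were 1 of the 2 at 48 h and 1 of the 2 at 72 h. Values are log2 signal, and probe sets differ in brightness, so each gene is compared only with itself across arrays. Krt4, the type II keratin of the non-basal layers of moist squamous epithelia, had a log2 signal of 7.79 on the control, 6.16 after 24 h, 6.96 after 36 h, 4.21 and 7.74 after 48 h (replicates 1 and 2), and 8.51 and 4.12 after 72 h (replicates 1 and 2). The highest and the lowest array for Krt4 were thus the 2 arrays of 72 h, 4.39 apart on the log2 scale, or 21.0-fold. Its 2 values at 48 h differed by 3.53, or 11.6-fold, with replicate 2 the higher. The 24 h and 36 h arrays lay between the arrays of either pair, and the control lay beside the higher array of 48 h.

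Krt13, the type I partner of Krt4, had a log2 signal of 6.54 on the control, 6.34 after 24 h, 6.78 after 36 h, 4.99 and 6.83 after 48 h (replicates 1 and 2), and 7.73 and 4.47 after 72 h (replicates 1 and 2). The same 2 arrays were the lowest as for Krt4, and 72 h replicate 1 was again the highest. The pair differed by 1.83 at 48 h, or 3.56-fold, and by 3.25 at 72 h, or 9.54-fold. Krtdap, which encodes a small secreted protein of differentiating keratinocytes, had a log2 signal of 7.14 on the control, 6.51 after 24 h, 7.33 after 36 h, 3.83 and 7.74 after 48 h (replicates 1 and 2), and 7.88 and 3.95 after 72 h (replicates 1 and 2). Its 48 h pair differed by 14.9-fold and its 72 h pair by 15.3-fold, in opposite directions by replicate number. Over the 5 arrays other than 48 h replicate 1 and 72 h replicate 2, the 3 genes kept a log2 signal of 6.16 or more.

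The basal keratins Krt14 and Krt15 varied less. In all 6 markers replicate 2 lay above replicate 1 at 48 h and below it at 72 h, but in the basal keratins by little. The differences were 0.08 and -0.20 for Krt14, and 0.04 and -0.47 for Krt15. Over all 22180 genes, replicate 2 lay above replicate 1 at 48 h in 9689 and below it at 72 h in 9634, each pair counted alone. Krt14, the type I keratin of basal cells, had a log2 signal of 4.58 on the control, 4.58 after 24 h, 4.58 after 36 h, 4.57 and 4.65 after 48 h, and 4.70 and 4.50 after 72 h. Its whole range over the 7 arrays was 0.20, although its highest and lowest arrays were the same as for Krt4. Krt15 had 4.30 on the control, 3.69 after 24 h, 4.06 after 36 h, 4.06 and 4.10 after 48 h, and 4.36 and 3.89 after 72 h. The 24 h array was its lowest, and its range was 0.67. Both genes stayed near the array medians of 4.56 to 4.71 or below them. The deposited values carry no detection call, so whether either gene was above background was not tested. Their small range therefore does not show whether the basal layer departed from Krt4, and Krt5 was not measured.

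The last measured marker was Krt6a, a type II keratin that stratified epithelia make on injury or rapid turnover. Its log2 signal was 3.75 on the control, 3.86 after 24 h, 5.12 after 36 h, 3.81 and 4.15 after 48 h (replicates 1 and 2), and 4.76 and 3.78 after 72 h (replicates 1 and 2). The 36 h array was the highest, 1.37 above the control, and 72 h replicate 1 came next. On the other arrays Krt6a lay below the array medians, and whether it was above background was not tested. Replicate 2 minus replicate 1 was 0.33 at 48 h and -0.98 at 72 h, in the same directions as for Krt4. Krt6b, a close copy of Krt6a, had 4.20 on the control, 5.32 after 24 h, 5.78 after 36 h, 4.87 and 5.01 after 48 h, and 6.13 and 3.86 after 72 h, so both copies were higher at 36 h than on the control and higher on replicate 1 than on replicate 2 at 72 h. The sequences of these copies are so alike that probes may read both, and the 2 genes are not independent measurements.

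**Figure D1:**
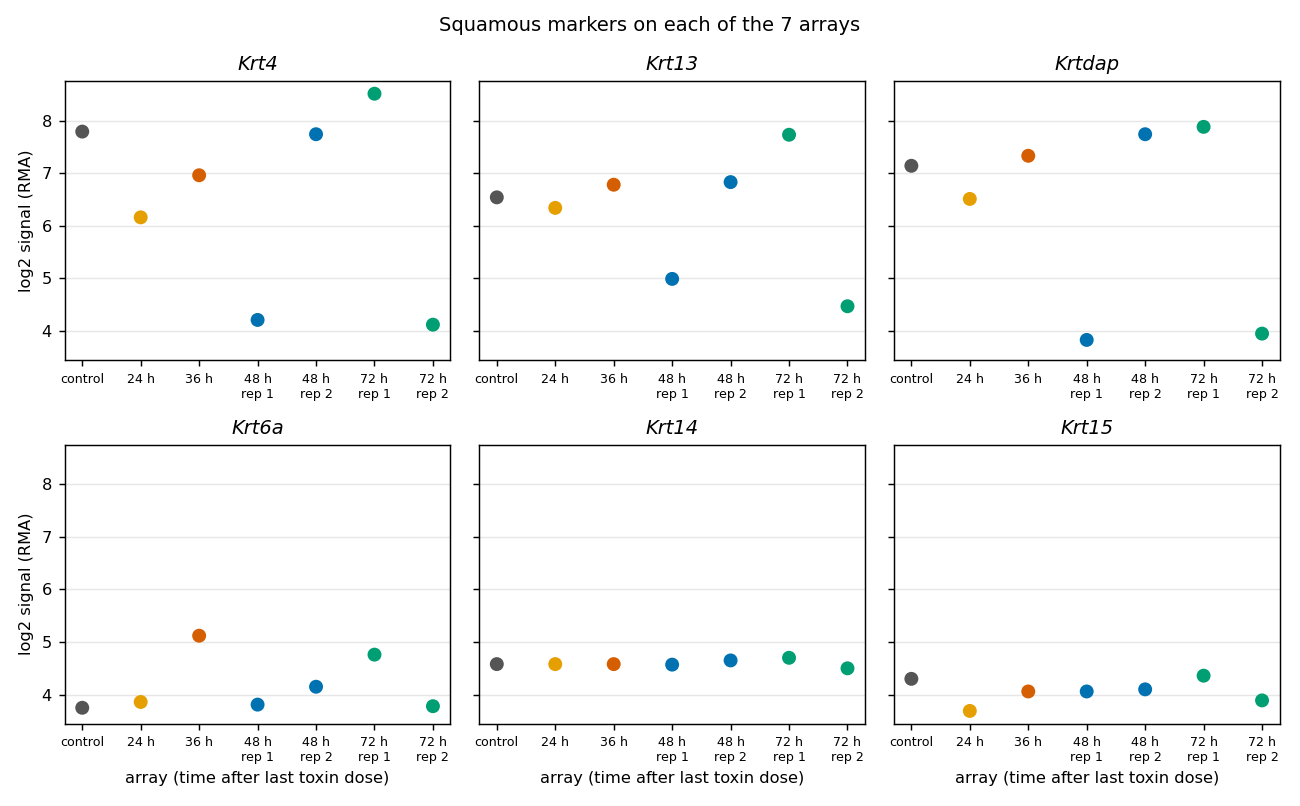
Log2 signal (vertical axis) of the 6 measured squamous markers on each of the 7 arrays (horizontal axis: control, then hours after the last toxin dose), 1 point per array and 1 colour per group. Krt4, Krt13 and Krtdap lie low on replicate 1 of 48 h and replicate 2 of 72 h, while Krt14 spans 0.20 over all arrays.

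The stretches just upstream of Krtdap and Krt13 are shown because these 2 genes moved together and lie on different chromosomes. Sequences are from RefSeq (GRCm38.p6), the 250 bases before the gene's start, 5′ to 3′ on the gene's strand. The table used here matched 4 of the 7 genes and holds 2 starts for Krt13, of which the one at the outer end of the gene is shown. Capitals mark matches on either strand to a TATA box (TATAAA), an AP-1 site (TGANTCA) or a CACCC box (CCACCC), motifs that do not overlap one another here.
Krtdap, chr7:30787655-30787904, + strand: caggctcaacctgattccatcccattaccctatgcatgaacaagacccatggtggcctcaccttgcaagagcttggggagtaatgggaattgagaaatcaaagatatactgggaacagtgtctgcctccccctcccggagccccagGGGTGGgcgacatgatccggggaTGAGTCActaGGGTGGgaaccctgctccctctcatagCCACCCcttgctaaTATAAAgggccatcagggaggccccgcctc
Krt13, chr11:100121567-100121816, - strand: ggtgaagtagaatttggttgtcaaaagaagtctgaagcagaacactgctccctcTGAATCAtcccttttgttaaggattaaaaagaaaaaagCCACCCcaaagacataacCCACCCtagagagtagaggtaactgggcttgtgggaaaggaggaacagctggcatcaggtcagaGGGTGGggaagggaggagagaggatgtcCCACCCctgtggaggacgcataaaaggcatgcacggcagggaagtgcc
Position -1 is the base just before the start. Krtdap held 1 TATA box at -30, 1 AP-1 match at -81 and 3 CACCC boxes, and Krt13 held 1 AP-1 match at -196, 4 CACCC boxes and no TATAAA in this window. The other Krt13 start held 2 AP-1 matches, at -183 and -34, and no CACCC or TATA box. The only listed start of Krt14 lies 1480 bases from the outer end of the gene. Its window held 1 CACCC box, at -99, and no other motif, and does not show what lies before that end. The listed start of Krt5 held none of the motifs. Of all 32851 promoters in the table, 12.4% held the TATA box, 6.75% the AP-1 site and 28.1% the CACCC box in the same window. These matches describe letters only and were not tested for binding.

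Against the single control array, the differences of the upper-layer markers depended on which array of a pair was read. The 36 h, 48 h and 72 h arrays also differed from the control in sex-linked genes, as given below. At 24 h, Krt4 was 1.63 lower than the control (log2 difference -1.63), Krtdap was at -0.63, Krt15 at -0.61, Krt13 at -0.20, Krt6a at 0.12 and Krt14 at 0.00. Of the 6 markers 1 was at least 2-fold lower at 24 h, where 1.67% of all genes were. At 36 h, Krt6a was at 1.37, Krt13 at 0.24, Krtdap at 0.19, Krt14 at 0.00, Krt15 at -0.24 and Krt4 at -0.83. Of the 6 markers 1 was at least 2-fold higher at 36 h, against 0.933% of all genes. No test was made at 24 h or 36 h, since each comparison sets 1 array against 1.

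At 48 h, replicate 1 was at -3.58 from the control for Krt4, -3.31 for Krtdap and -1.55 for Krt13, so 3 of the 6 markers were at least 2-fold lower, where 1.58% of all genes were. Replicate 2 was at -0.04 for Krt4, 0.59 for Krtdap and 0.28 for Krt13, and none of the 6 markers was past 2-fold in either direction, where 0.685% of all genes were higher and 1.76% lower. The means at 48 h were 5.98 ± 2.50 for Krt4, 5.91 ± 1.29 for Krt13 and 5.79 ± 2.76 for Krtdap (SD, n = 2), against control values of 7.79, 6.54 and 7.14 (n = 1). In limma, fitted over all 22180 genes with the 2 pairs giving the spread, the difference from the control was -1.81 ± 2.75 for Krt4, -0.63 ± 1.82 for Krt13 and -1.36 ± 2.70 for Krtdap (± SE), with adjusted p of 0.834, 0.938 and 0.888. Krt14 was at 0.03 ± 0.12, Krt15 at -0.22 ± 0.24 and Krt6a at 0.24 ± 0.51. None of the 6 markers passed, and limma called 0% of all genes (0 of 22180), with 19.7% at an unadjusted p under 0.05.

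At 72 h, replicate 2 was at -3.67 from the control for Krt4, -3.20 for Krtdap and -2.07 for Krt13, so again 3 of the 6 markers were at least 2-fold lower, against 1.03% of all genes. Replicate 1 was at 0.72 for Krt4, 0.74 for Krtdap and 1.18 for Krt13, with Krt6a at 1.02, and 2 of the 6 markers were at least 2-fold higher, against 0.649% of all genes. The means at 72 h were 6.32 ± 3.11 for Krt4, 6.10 ± 2.30 for Krt13 and 5.91 ± 2.78 for Krtdap (SD, n = 2), against the same control values. The limma difference was -1.47 ± 2.75 for Krt4, -0.44 ± 1.82 for Krt13, -1.23 ± 2.70 for Krtdap, 0.53 ± 0.51 for Krt6a, 0.02 ± 0.12 for Krt14 and -0.17 ± 0.24 for Krt15 (± SE). Adjusted p ran from 0.727 for Krt6a to 0.984 for Krt14, and limma called 0% of all genes at 72 h against control, with 17.9% at an unadjusted p under 0.05.

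The comparison of 72 h with 48 h does not rest on the control. There the limma difference was 0.34 ± 2.25 for Krt4, 0.19 ± 1.49 for Krt13, 0.13 ± 2.21 for Krtdap, 0.29 ± 0.42 for Krt6a, -0.01 ± 0.09 for Krt14 and 0.05 ± 0.19 for Krt15 (± SE). Adjusted p for the 6 markers was 0.819 or higher, and limma called 0% of all genes, with 7.07% at an unadjusted p under 0.05. In these 3 comparisons the SE exceeded the difference for Krt4, Krt13, Krtdap, Krt14 and Krt15. With each of the 4 arrays left out in turn, the difference of Krt4 between 72 h and 48 h ran from -1.86, without 72 h replicate 1, to 2.53, without 72 h replicate 2, so that 1 array decided its sign. The order of the 5 groups in any of Krt4, Krt13 or Krtdap was therefore not larger than the spread within the pairs.

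Within-pair differences were then read for all genes, since they need no control. At 48 h, replicate 2 was at least 2-fold above replicate 1 in 3 of the 6 markers, against 0.275% of all genes (61 of 22180). Liver genes were higher on the same array: of 22 hepatocyte genes, a list written after the values of Alb were seen, 12 were at least 2-fold above replicate 1 there, with Alb at 4.90, Ahsg at 2.08 and a median of 1.09. At 72 h, replicate 2 was at least 2-fold below replicate 1 in the same 3 markers, Krt4, Krt13 and Krtdap, against 0.257% of all genes (57 of 22180), and in 0 of the 22 liver genes, whose median was 0.05. In the other direction, 1 liver gene, Apoa1, was past 2-fold at 72 h, at 1.57, against 0.0631% of all genes. Krt6a fell just short of 2-fold at 72 h, at -0.98. The directions of the 3 markers, above at 48 h and below at 72 h, held together in 21 genes, or 0.0947% of all genes. The other combinations of direction held in 3 genes, or 0.0135% (above in both pairs), 1 gene, or 0.00451% (below at 48 h and above at 72 h), and 0 genes (below in both pairs). The 2 directions were put together after the markers' values were seen, and the counts are a description without a test.

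Of these 21 genes, 3 were Krt4, Krt13 and Krtdap and 13 were other genes of squamous differentiation from the lists used here. The lists hold 99 of the 22180 genes measured. They and the markers were chosen with earlier results of these data known, so the count is a description. Krt1, the type II keratin of keratinised upper layers, had 7.36 on the control, 7.37 after 24 h, 8.21 after 36 h, 5.25 and 8.03 after 48 h (replicates 1 and 2), and 8.37 and 4.71 after 72 h (replicates 1 and 2). Krt10, its type I partner, had 7.47 on the control, 7.10 after 24 h, 7.98 after 36 h, 5.14 and 8.29 after 48 h, and 8.02 and 5.06 after 72 h. The Krt1 and Krt10 pair thus shared with Krt4 and Krt13 the 2 lowest arrays. The remaining 11 were Cnfn, Sprr3, Rptn, Lor, Dmkn, Asprv1, Spink5, Flg and Lce3b, which serve the cornified layer, the desmosomal cadherin gene Dsc1, and Serpinb12, a protease inhibitor gene.

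Cnfn, which encodes cornifelin of the cornified envelope, had 7.20 on the control, 7.72 after 24 h, 7.81 after 36 h, 5.14 and 8.43 after 48 h (replicates 1 and 2), and 8.66 and 5.22 after 72 h (replicates 1 and 2). Sprr3, a small proline-rich envelope protein gene of the oesophagus and mouth, had 4.76 on the control, 4.60 after 24 h, 5.33 after 36 h, 2.52 and 5.39 after 48 h, and 5.64 and 2.33 after 72 h. On 48 h replicate 1 Cnfn was at -2.06 and Sprr3 at -2.25 from the control, and on 72 h replicate 2 they were at -1.98 and -2.43. The 5 genes outside the lists, named after their values were seen, were Gm94, Lce1f, Chil4, Fads2b and Igkv15-103. Of these Lce1f belongs to the late cornified envelope family, while Chil4, a chitinase-like gene, had its highest value, 7.97, at 36 h and its lowest, 3.98, on the control.

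**Figure D2:**
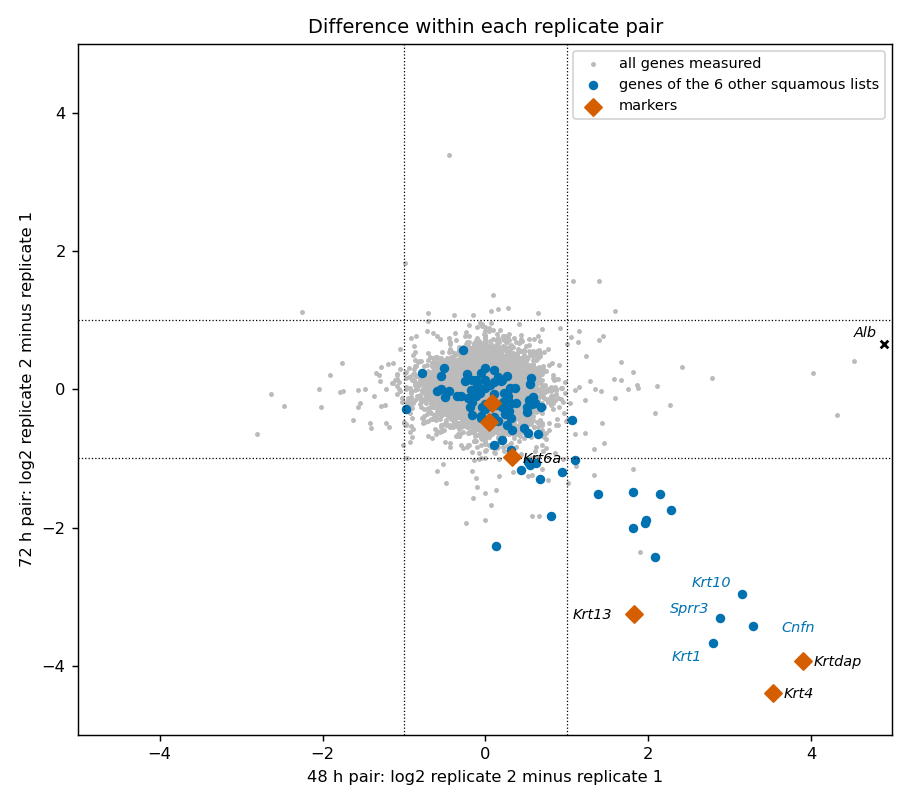
Log2 difference of replicate 2 minus replicate 1 at 48 h (horizontal axis) and at 72 h (vertical axis) for all genes (grey), the 6 other squamous gene lists (blue) and the markers (orange diamonds), with dotted lines at 2-fold. Krt4, Krtdap and Krt13 lie at the lower right with Krt1, Krt10, Cnfn and Sprr3, where 21 of 22180 genes are past 2-fold in both pairs, and Alb lies at 4.90 and 0.65.

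Of the 61 genes past 2-fold at 48 h in this direction, 17 were markers or genes of the 6 squamous lists and 12 were liver genes, and of the 57 genes at 72 h these numbers were 24 and 0. Among 33 measured genes of the cornified envelope and late differentiation, 9 were at least 2-fold higher on 48 h replicate 2 than on replicate 1 and 15 were at least 2-fold lower on 72 h replicate 2 than on replicate 1, against 0.275% and 0.257% of all genes, and the median differences were 0.53 and -0.65. Among 15 other keratins of stratified epithelia these counts were 2 and 3, with medians of 0.20 and -0.12. Among 14 desmosome genes they were 1 and 2, with Dsc1 at 1.38 and -1.52 and medians of -0.05 and -0.11. Among 17 surface and secreted genes they were 2 and 1, with medians of 0.15 and -0.18. Over all genes the median difference was 0.00 in both pairs.

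Of the 8 measured genes of basal layer adhesion and the 12 of squamous regulators, none was past 2-fold in either pair in any direction. Over all genes, the opposite directions held for 0.207% at 48 h (replicate 2 below replicate 1) and 0.0631% at 72 h (replicate 2 above replicate 1). With shares of all genes this small, a count of 0 says nothing particular about these lists. In the basal list, Itga3, an integrin subunit gene, ran from 6.99 to 7.78 and Dst, a hemidesmosome linker gene, from 6.74 to 7.44. Trp63, the master regulator of the basal layer, which is named here after its values were seen, ran from 3.78 to 4.15. These values lie below all array medians, and whether they were above background was not tested. Replicate 2 minus replicate 1 was 0.37 at 48 h and -0.19 at 72 h for Trp63, in the same directions as for Krt4. Klf4 and Klf5, which gland cells of the stomach make too, ran from 9.06 to 9.60 and from 9.28 to 9.54 on the toxin arrays, against 8.83 and 8.68 on the control. The limma fits called none of the 99 genes of the 6 lists, higher or lower, in any of the 3 comparisons, as for all genes.

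Several genes that are used as squamous markers elsewhere did not follow Krt4. Ly6d, a surface protein gene of stratified epithelia, had 7.21 on the control, 8.30 after 24 h, 9.53 after 36 h, 8.64 and 8.70 after 48 h, and 8.64 and 8.72 after 72 h. All 6 toxin arrays lay above the control for Ly6d, and the arrays of each pair lay within 0.07 of each other. The limma difference was 1.46 ± 0.07 at 48 h and 1.47 ± 0.07 at 72 h (± SE), with adjusted p of 0.120 and 0.146, so it did not pass. Aqp3, a water and glycerol channel gene of many epithelia, had its highest value, 10.03, at 36 h and its lowest, 8.84, at 24 h.

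**Figure D3:**
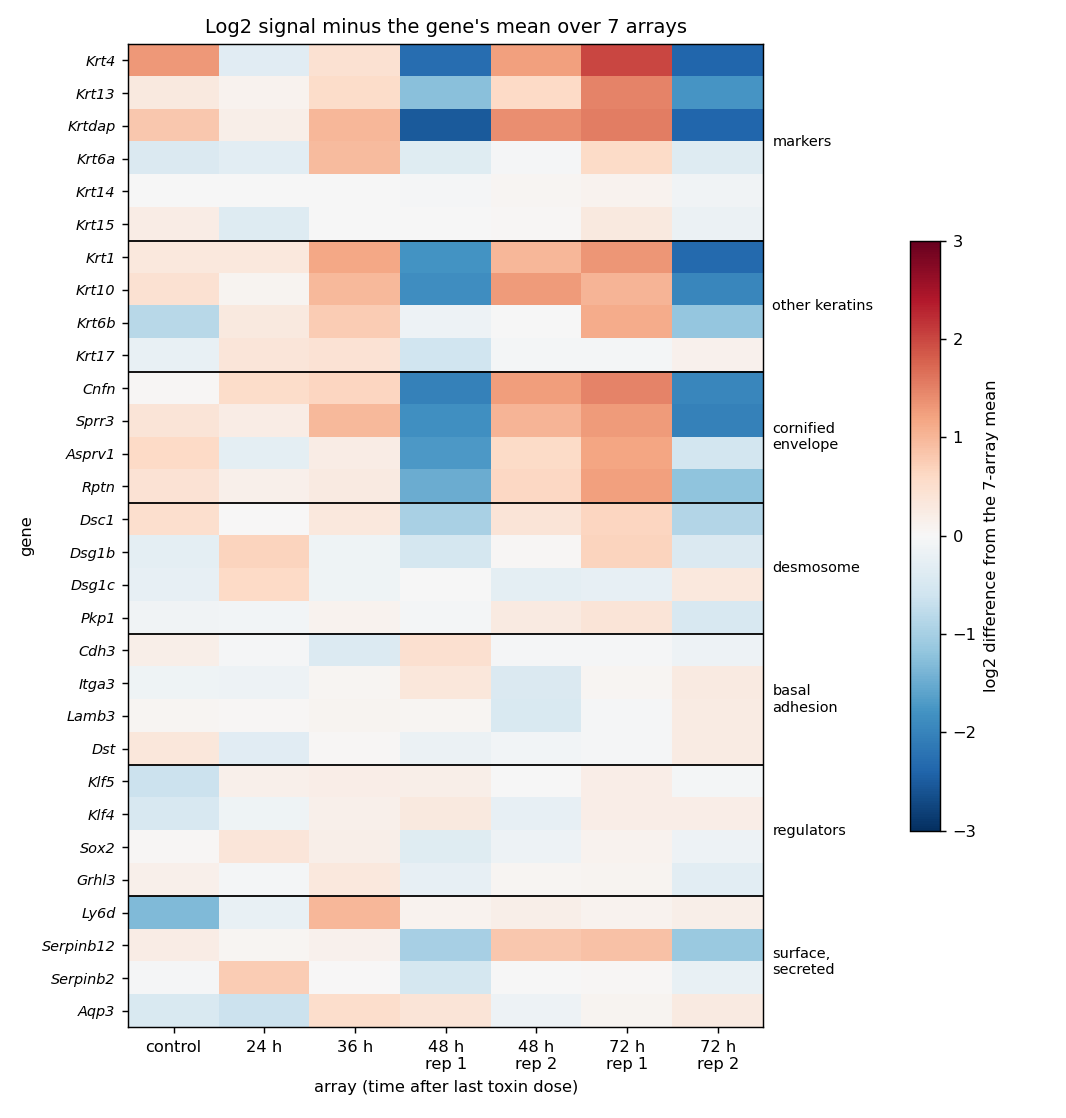
Log2 signal of each gene minus its mean over the 7 arrays (colour) for the 6 markers and, from each of 6 squamous lists, the 4 genes with the widest range, with arrays in columns from the control to 72 h. The upper-layer genes Krt4, Krtdap, Krt1, Krt10, Cnfn and Sprr3 are blue on 48 h replicate 1 and 72 h replicate 2, while the basal adhesion and regulator genes stay pale.

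Across all genes, likeness was measured as the root-mean-square difference between a gene's log2 signal, centred on its mean over the 7 arrays, and the mean centred profile of the 6 markers. That profile was 0.36 on the control, -0.13 after 24 h, 0.48 after 36 h, -1.07 and 0.55 after 48 h, and 1.01 and -1.20 after 72 h. Among 1348 genes with a range of at least 1 on the log2 scale, the 10 nearest named genes were Serpinb12, Dsc1, Rptn, Lor, Dmkn, Flg, Spink5, Hrnr, Lce1f and Scel, with distances from 0.200 for Serpinb12 to 0.365 for Scel. By comparison Krt13 itself was 0.303 from the profile. The other markers lay farther from it than all 10 genes. Krt4 and Krtdap, whose ranges are wider, were at 0.868 and 0.847. Krt14, Krt15 and Krt6a, whose ranges are narrower, were at 0.735, 0.684 and 0.601. The profile is thus a mean of wide and nearly flat genes. Of the 10 genes 9 were already in a squamous list, and Lce1f was not. Of all 1348 genes ranked, 31 were in the 6 squamous lists. The lists were chosen with earlier results of these data known, and the ranking uses the markers' own values, so the count is a description. Lor, which encodes the envelope protein loricrin, had 5.75 on the control, 5.19 after 24 h, 5.23 after 36 h, 3.88 and 5.84 after 48 h, and 6.19 and 4.25 after 72 h.

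Markers of neighbouring tissues were read on the same arrays. The 12 measured corpus gland genes had mean log2 signals of 12.24 on the control, 11.68 after 24 h, 11.89 after 36 h, 11.90 and 12.04 after 48 h, and 12.13 and 12.06 after 72 h. Atp4b, the parietal cell gene that drives the toxin receptor, had 12.94 on the control, 10.68 after 24 h, 12.33 after 36 h, 11.66 and 12.39 after 48 h (replicates 1 and 2), and 12.65 and 12.92 after 72 h (replicates 1 and 2). So of the 2 arrays with low Krt4, one had an Atp4b signal below its partner and the other one above its partner. The 8 smooth muscle genes had means from 9.33 to 9.64, highest on 72 h replicate 2. The 9 striated muscle genes, which the wall of the mouse oesophagus expresses, had means from 4.54 to 4.73, and the 15 hair and hair sheath keratins, from 4.11 to 4.35.

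None of the striated muscle, smooth muscle or hair keratin genes was past 2-fold within either pair, where at most 0.275% of all genes were in any 1 direction, so a count of 0 says nothing particular about these lists. The 22 liver genes had a mean of 5.93 on 48 h replicate 2, against 4.61 to 4.86 on the other 5 toxin arrays and 4.82 on the control. Thus liver and squamous genes were both higher on replicate 2 than on replicate 1 at 48 h, while 72 h replicate 1 and the control had high Krt4 with Alb at 4.84 and 4.49. The difference of the 48 h replicate 1 array from the control and the 72 h pair do not use the array with high Alb. The gastrin gene Gast, a product of the antrum at the other end of the stomach, had 5.83 on the control, 6.0 after 24 h, 7.32 after 36 h, 7.32 and 6.68 after 48 h (replicates 1 and 2), and 8.32 and 7.61 after 72 h (replicates 1 and 2), and was higher on replicate 1 than on replicate 2 in both pairs. The simple epithelial keratin gene Krt19 ran from 10.29 on the control to 10.86 at 36 h. The part of dissection or of liver and other tissue content in the marker differences was not tested.

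**Figure D4:**
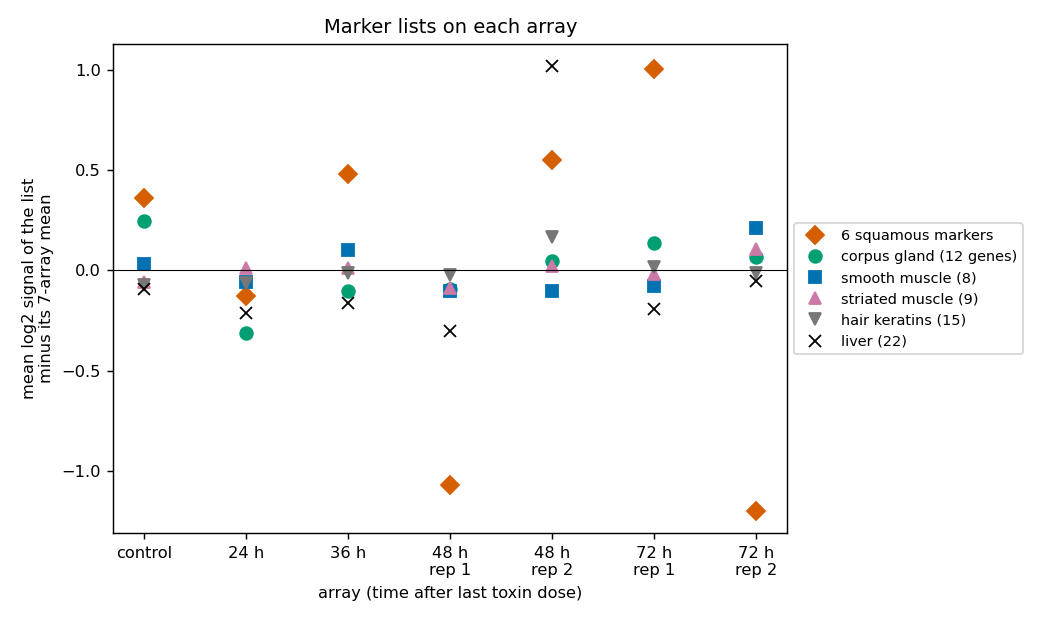
Mean log2 signal of each marker list minus its mean over the 7 arrays (vertical axis) on each array (horizontal axis), 1 symbol per list. The squamous markers run from -1.20 to 1.01, and the liver list is high on 48 h replicate 2 alone, while the smooth muscle, striated muscle and hair keratin lists stay close to 0 on all arrays.

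The arrays also differed in sex-linked genes, which touches the comparisons with the control. The X-inactivation transcript Xist had 8.13 on the control and 9.17 at 24 h, and 2.70 to 3.27 on the other 5 arrays. The 4 arrays of 48 h and 72 h, among them both arrays with low Krt4, shared 1 sex pattern. The part of sex in the marker differences was not tested.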

How the data were processed

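Per the labels, gastric corpus was snap-frozen, its total RNA was turned into biotinylated cDNA (Affymetrix WT Plus kit), and each sample was hybridised to 1 single-channel array. The authors computed the deposited log2 signal of 41345 probe sets with RMA in Partek, per the submitters' processing notes, with versions and genome build not given in the sources used here. It was used as deposited, and array signal has no read depth. Probe sets were named from the platform annotation: 23521 had 1 gene, 1814 several and 16010 none. Entrez identifiers matched the mouse gene table (GRCm38.p6) for 23328 probe sets, and 193 did not match. Each gene kept its probe set of highest mean (22180 genes).

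Samples were grouped by title. All genes were fitted in limma 3.58.1 (R 4.3.3, lmFit then eBayes, two-sided tests) with a mean per group, for 48 h and 72 h against control and 72 h against 48 h, with 2 residual and 1.15 prior degrees of freedom. Benjamini-Hochberg adjusted p under 0.05 was called, and single-array comparisons count genes past 2-fold. The control has 1 array, which the fit takes to be as variable as the pairs. The fit was tested on simulated data for the size of its estimates of 72 h against 48 h. How many changes of a given size it would call is not given here. The 48 h and 72 h pairs share replicate numbers by label only: across genes, which are no replicates, their differences correlated at -0.13, and no block was used.

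The members and lists were chosen with earlier results of these data known. Genes are named by a rule: all members, up to 4 genes per list with the widest range, and the 10 nearest to the members' profile, passing over predicted genes and RNA, receptor and immunoglobulin families (1 passed over). Other named genes and the liver list were chosen after their values were seen. Alternatives were 2 scalings, the mean of probe sets, leaving out dim genes, leaving out each replicate and the replicate block.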

Additional observations from a re-analysis of the deposited data

How the results depend on the processing

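No member passed limma in any comparison under any of the alternatives run; the lowest adjusted p of a member was 0.252. Counts over all genes were higher with scaling in both comparisons with the control, and the cause was not tested: at 48 h against control, 167 genes were called with array medians subtracted and 7 with quantile normalisation again, and at 72 h against control 30 and 5, against 0 in the values as deposited. Krt14 changed sign with array medians subtracted and with quantile normalisation again, to -0.09 and -0.09 at 48 h against control, -0.03 and -0.02 at 72 h against control, and 0.06 and 0.07 at 72 h against 48 h. With dim genes left out, only 3 of the 6 markers remained by construction, and their median difference from the control was -3.31 on 48 h replicate 1 (-0.89 over 6) and -3.20 on 72 h replicate 2 (-1.24 over 6). The replicate block on the 4 arrays of 48 h and 72 h called 0 genes, as did these arrays without the block and, in a setting chosen after seeing the data, with crossed numbers.

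With each replicate left out in turn, 0 genes were called in all 3 comparisons, and members ran as follows. At 48 h against control the differences ran from -3.58 to -0.04 for Krt4, -1.55 to 0.28 for Krt13, -3.31 to 0.59 for Krtdap, -0.01 to 0.07 for Krt14, 0.07 to 0.40 for Krt6a and -0.24 to -0.20 for Krt15. At 72 h against control they ran from -3.67 to 0.72 for Krt4, -2.07 to 1.18 for Krt13, -3.20 to 0.74 for Krtdap, -0.08 to 0.12 for Krt14, 0.03 (without replicate 1) to 1.02 (without replicate 2) for Krt6a and -0.41 to 0.06 for Krt15. At 72 h against 48 h they ran from -1.86 to 2.53 for Krt4, -1.44 to 1.82 for Krt13, -1.84 to 2.10 for Krtdap, -0.11 to 0.09 for Krt14, -0.20 to 0.78 for Krt6a and -0.19 to 0.28 for Krt15. Within the pairs, in settings chosen after seeing the data, the 21 genes past 2-fold in both became 20, 20 and 21, and Krt4 ran from 3.49 to 3.62 at 48 h and from -4.39 to -4.37 at 72 h. The cause of the sign changes of Krt14 was not tested. The number of arrays, and the lack of a detection call for dim probe sets, limit what these values can show.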

Other observations

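Krt7, a keratin of simple and transitional epithelia, had a log2 signal of 5.30 on the control, 5.49 after 24 h, 6.35 after 36 h, 6.03 and 5.79 after 48 h (replicates 1 and 2), and 6.77 and 6.40 after 72 h (replicates 1 and 2). All 6 toxin arrays lay above the control for Krt7, and its values within the pairs differed by 0.24 and 0.37 in size. Krt20, a keratin of the gastric surface cells, ran from 8.51 at 24 h to 10.01 at 36 h. Sprr1a, a small proline-rich envelope protein gene chosen after its values were seen, had 9.20 on the control, 9.73 after 24 h, 10.37 after 36 h, 9.97 and 9.91 after 48 h, and 10.26 and 9.87 after 72 h. The 2 arrays with the lowest Krt4 were thus not set apart in Krt7, Krt20 or Sprr1a.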
